A study of Rattus norvegicus with 105 samples.

Results

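The comparison described here sets gastrocnemius muscle taken 6 months after metal pellets were implanted against muscle taken at 3 months, over 7 implanted metals. Its members are the 42 arrays whose titles carry 3 or 6 months and one of the metals aluminum (Al), copper (Cu), depleted uranium (DU), iron (Fe), lead (Pb), tantalum (Ta) or tungsten (W), of 105 arrays in all. There were 21 arrays at each month and 3 for each metal and month. The 12 arrays of cobalt (Co) and nickel (Ni) at these months were not members, and their values are given only beside those of the 7 metals.

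All animals were male Sprague-Dawley rats, bought at about 30 days of age and given at least 2 weeks to acclimate. Each rat carried 4 cylindrical pellets of its metal, 2 in each limb, 1 mm across and 2 mm long; tantalum rats were the study's surgical sham control, so every group at both months had surgery and a foreign body, and no group without an implant is used here. Each month was a separate cohort of 8 rats per metal. Every array (Clariom S Rat) received 250 ng of total RNA pooled from 2 to 3 rats, so a replicate is a pool. p-values measure the spread between such pools. Age, time with the implant, cohort and the handling of the arrays of a cohort change together between 3 and 6 months and cannot be told apart.

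Gastrocnemius is a mixed limb muscle made mostly of fast fibres with a smaller share of slow, oxidative fibres. Around the fibres lie capillaries, nerve endings, satellite cells (the muscle stem cells), macrophages and the fibroblast-like cells that lay down collagen. Growing muscle deposits matrix actively, and this activity declines as growth slows, while an implant is enclosed by macrophages and a fibrous capsule. Growth of these rats was not examined here.

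Values are log2 levels, and a difference is 6 minus 3 months on the log2 scale, fitted in limma with metal as a factor. The threshold is a Benjamini-Hochberg adjusted p of 0.05 over all 22954 probe sets tested, and "passed" refers to it. The muscle markers were at the top of the scale in both months: Ckm, the muscle creatine kinase, averaged 13.34 at 3 months and 13.24 at 6 months, and Tnnt3, a fast-fibre troponin, 13.29 and 13.26. In a bulk sample, fewer cells of a type and less RNA per cell cannot be told apart.

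Of the 22954 probe sets, 7915 passed (34.5%), of which 3726 were higher at 6 months (16.2% of those tested) and 4189 lower (18.2%). Most differences were small. The median size among those that passed was 0.21, and 32 probe sets were at least 1.5-fold higher and 64 at least 1.5-fold lower. At 2-fold, 4 were higher and 4 lower. The direction was the same in each of the 7 metals for 2006 of the higher and 2557 of the lower probe sets. For 36 probe sets, 8 higher and 28 lower, the 21 arrays of one month did not overlap those of the other (0.157%). The first principal component of the 42 arrays held 15.3% of the variance, and the months did not overlap on it.

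Array-wide levels moved with the month as well. The mean of the low-GC control probe sets, which match no rat gene, ran from 2.36 to 2.57 (median 2.48) on the 3-month arrays and from 2.22 to 2.36 (median 2.29) on the 6-month arrays, and 19 of 21 arrays at 6 months lay below every array at 3 months. The median of the olfactory receptor genes, a family muscle is not known to use, was 4.18 at 3 months and 4.33 at 6 months, and 319 of its 1002 measured members were higher and 37 lower. Arrays sharing a replicate number also deviated together across metals at 6 months, where all 63 such pairs had a correlation above 0.1, and did so in 7 of 63 pairs at 3 months. With the number within each month as a random block, 4732 probe sets passed (20.6%), all of them among the 7915. With the low-GC control level as a covariate, which nearly coincides with the month, 3178 passed. The part of these array-wide levels in the gene differences was not tested. Counts with the random block, and in the larger or more changed groups also with the control covariate, are given below beside the main count. All list counts are to be read against 18.2% lower and 16.2% higher over all probe sets. Every gene described below as changed also passed with the random block. The 30 genes referred to below are the 15 highest and 15 lowest differences under a rule. They were taken from genes that passed, with one sign in all 7 metals, outside the dimmest 30% of probe sets. With the control covariate, of the named genes outside these 30, those that passed and still passed were Col3a1, Pcolce, Col4a1, Sparc, Col6a2, Postn, Timp1, Mmp2, Laptm5, RT1-Ba, Ccl19, Aplnr, Acta2, Cd34, Igfbp7, Igfbp4, Nr1d1, Egr3, Fbxo30, Myf6, Myog, Gys1, Atp5f1e, Rplp1, Psmc2, Psmc1, Psmd10, Atf5, Dnajb9, Dnajb4, Gpx3, Tfrc, Fgf21 and Hbb. The others did not.

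**Figure D1:**
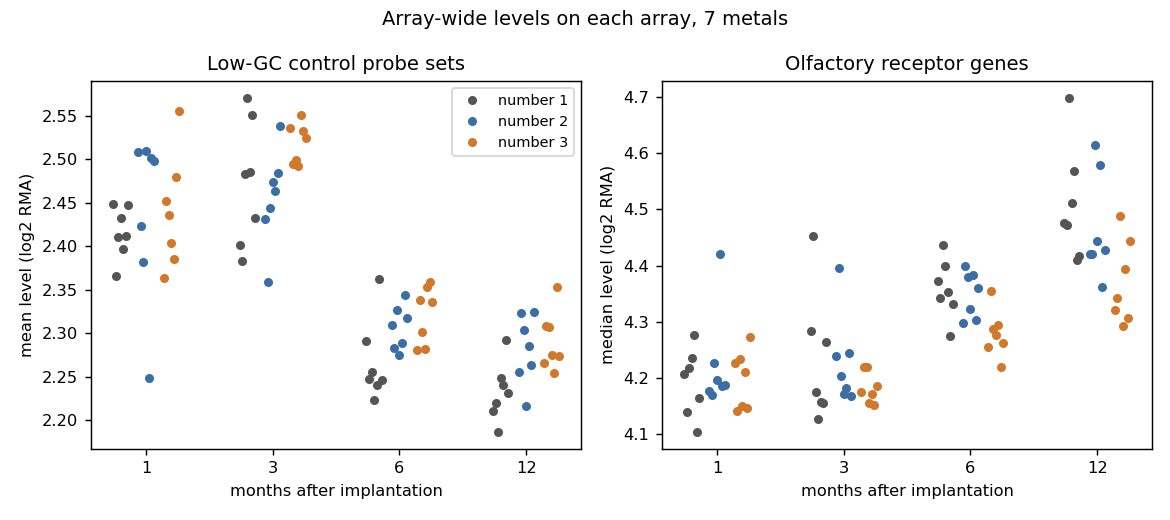
Mean log2 level of the low-GC control probe sets (left) and median log2 level of the olfactory receptor genes (right) on each array of the 7 metals, by months after implantation; each point is an array, coloured by replicate number. The control level lies between 2.22 and 2.36 at 6 months and between 2.36 and 2.57 at 3 months, with 19 of 21 arrays at 6 months below all at 3 months, and the olfactory receptor median is higher at 6 months.

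Promoter sequences are shown for 5 genes on which the following results turn: a macrophage protease, a collagen chain, a pair of antigen-presentation genes and a cell-cycle inhibitor. They are RefSeq windows of the GRCr8 build, 250 bases before to 50 after the gene's start, written 5′ to 3′ on the gene's strand; all 5 genes lie on the plus strand. Windows were at hand for 20 of the 30 genes defined above. Capitals mark a TATAAA box in Mmp12 (chr8:12866402-12866701), TATAAA with a p53 half-site and an inverted CCAAT box (ATTGG on the strand shown) in Col1a2 (chr4:33518307-33518606), the same inverted CCAAT in RT1-Da (chr20:4515165-4515464) and RT1-Ba (chr20:4576807-4577106), and a p53 half-site in Cdkn1a (chr20:7150682-7150981).
Mmp12: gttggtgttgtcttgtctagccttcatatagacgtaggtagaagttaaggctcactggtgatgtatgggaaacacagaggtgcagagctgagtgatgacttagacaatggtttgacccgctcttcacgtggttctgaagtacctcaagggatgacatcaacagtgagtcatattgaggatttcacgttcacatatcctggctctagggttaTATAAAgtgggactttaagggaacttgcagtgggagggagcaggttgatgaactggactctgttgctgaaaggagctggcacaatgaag
Col1a2: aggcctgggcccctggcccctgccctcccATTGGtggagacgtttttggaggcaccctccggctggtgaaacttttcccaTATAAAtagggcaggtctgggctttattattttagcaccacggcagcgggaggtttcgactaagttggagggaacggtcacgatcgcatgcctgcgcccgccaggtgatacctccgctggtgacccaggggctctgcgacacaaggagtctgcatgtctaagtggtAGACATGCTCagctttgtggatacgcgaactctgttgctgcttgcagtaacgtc
RT1-Da: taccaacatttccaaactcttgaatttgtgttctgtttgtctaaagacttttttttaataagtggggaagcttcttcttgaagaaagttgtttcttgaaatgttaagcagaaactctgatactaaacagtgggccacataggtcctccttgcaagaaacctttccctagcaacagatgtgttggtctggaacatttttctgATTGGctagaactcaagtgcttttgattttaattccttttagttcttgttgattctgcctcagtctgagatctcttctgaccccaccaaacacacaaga
RT1-Ba: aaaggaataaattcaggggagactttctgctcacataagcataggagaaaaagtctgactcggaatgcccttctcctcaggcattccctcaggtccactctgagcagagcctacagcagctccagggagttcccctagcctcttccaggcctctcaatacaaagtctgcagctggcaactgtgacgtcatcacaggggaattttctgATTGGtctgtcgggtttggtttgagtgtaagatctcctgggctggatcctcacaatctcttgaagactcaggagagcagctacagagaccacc
Cdkn1a: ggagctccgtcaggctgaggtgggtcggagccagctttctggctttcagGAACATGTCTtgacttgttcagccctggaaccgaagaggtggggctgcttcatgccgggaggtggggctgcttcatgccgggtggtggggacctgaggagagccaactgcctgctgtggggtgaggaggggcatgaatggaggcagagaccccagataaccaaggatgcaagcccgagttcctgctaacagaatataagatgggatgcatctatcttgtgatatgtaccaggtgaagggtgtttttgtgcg

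TATAAA begins 39 bases before the start in Mmp12 and 170 bases before it in Col1a2. The inverted CCAAT begins 221 bases before the start of Col1a2, 49 before that of RT1-Da and 43 before that of RT1-Ba. The p53 half-site begins 201 bases before the start of Cdkn1a. In Col1a2 it begins 4 bases before the start and runs across it. The start given for Col1a2 falls on the letters ATG, so its distances may not be counted from where transcription begins. On either strand, CCAAT was found in 37.5% of 33469 windows of 300 bases, TATAAA in 14.2% and the p53 half-site in 7.98%. These are matches of letters only. The inverted CCAAT close to the start is the Y box of the textbook MHC class II promoter, and Cdkn1a is a textbook p53 target.

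Genes of the extracellular matrix were lower at 6 months, and none of the matrix genes listed was higher. Col1a1, the main chain of type I collagen, ran from 9.72 through a median of 10.55 to 11.56 on the 3-month arrays and from 9.10 through 9.66 to 10.10 at 6 months. The ranges overlap, but 12 of 21 arrays at 6 months lay below all arrays at 3 months. The difference was −1.002 ± 0.103 (SE; limma adjusted p = 1.1e-09), and it was negative in all 7 metals, from −1.36 in DU to −0.51 in Fe.

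Col1a2, the partner chain whose promoter is shown, fell by 0.72 ± 0.10 (SE, limma adjusted p = 3e-07), and Col3a1, the chain of type III collagen, by 0.65 ± 0.09 (limma adjusted p = 2.09e-07). Of 16 measured genes for fibrillar collagens and their processing, 10 were lower, and the median difference was −0.18 against −0.004 over all probe sets; 9 passed with the random block, and 6 lower and 1 higher with the control covariate. Pcolce, which enhances procollagen cleavage, was among the 10, at −0.38 ± 0.05.

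Sparc, a collagen-binding glycoprotein, separated the months completely. It ran from 11.59 through 11.88 to 12.29 at 3 months and from 10.68 through 11.28 to 11.51 at 6 months, and the difference was −0.69 ± 0.06 (limma adjusted p = 1.08e-10). Of 19 other matrix genes, 12 were lower (10 with the random block, 8 with the control covariate), with a median of −0.30. They include Fn1 (fibronectin, −0.72 ± 0.10), Bgn (biglycan, −0.72 ± 0.09), Col4a1 of basement membranes (−0.41 ± 0.04), Col6a2 (−0.40 ± 0.05) and Postn (periostin, −0.44 ± 0.12). Mfap4, a microfibril-associated glycoprotein outside these lists, fell by 0.76 ± 0.08.

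Proteases that remodel matrix and their inhibitors were lower too, 7 of 8 (7 with the random block, 3 with the control covariate). Mmp12, the macrophage elastase, had the largest fall among the genes named by the rule, −1.88 ± 0.31 (limma adjusted p = 7.75e-06). It ran from 4.73 through 6.99 to 10.22 at 3 months and from 4.01 through 4.83 to 6.14 at 6 months. The spread at 3 months was wide: the W arrays were at 8.99, 7.65 and 8.30 and the Ta arrays at 9.19, 10.22 and 5.16, while the Cu arrays were at 4.73, 5.01 and 4.94, near the 6-month level. The difference ranged from −3.41 in W to −0.18 in Cu. With the control covariate Mmp12 no longer passed (adjusted p = 0.224). Timp1, an inhibitor of these proteases, fell by 0.48 ± 0.06, and Mmp2, a gelatinase, by 0.37 ± 0.07.

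**Figure D2:**
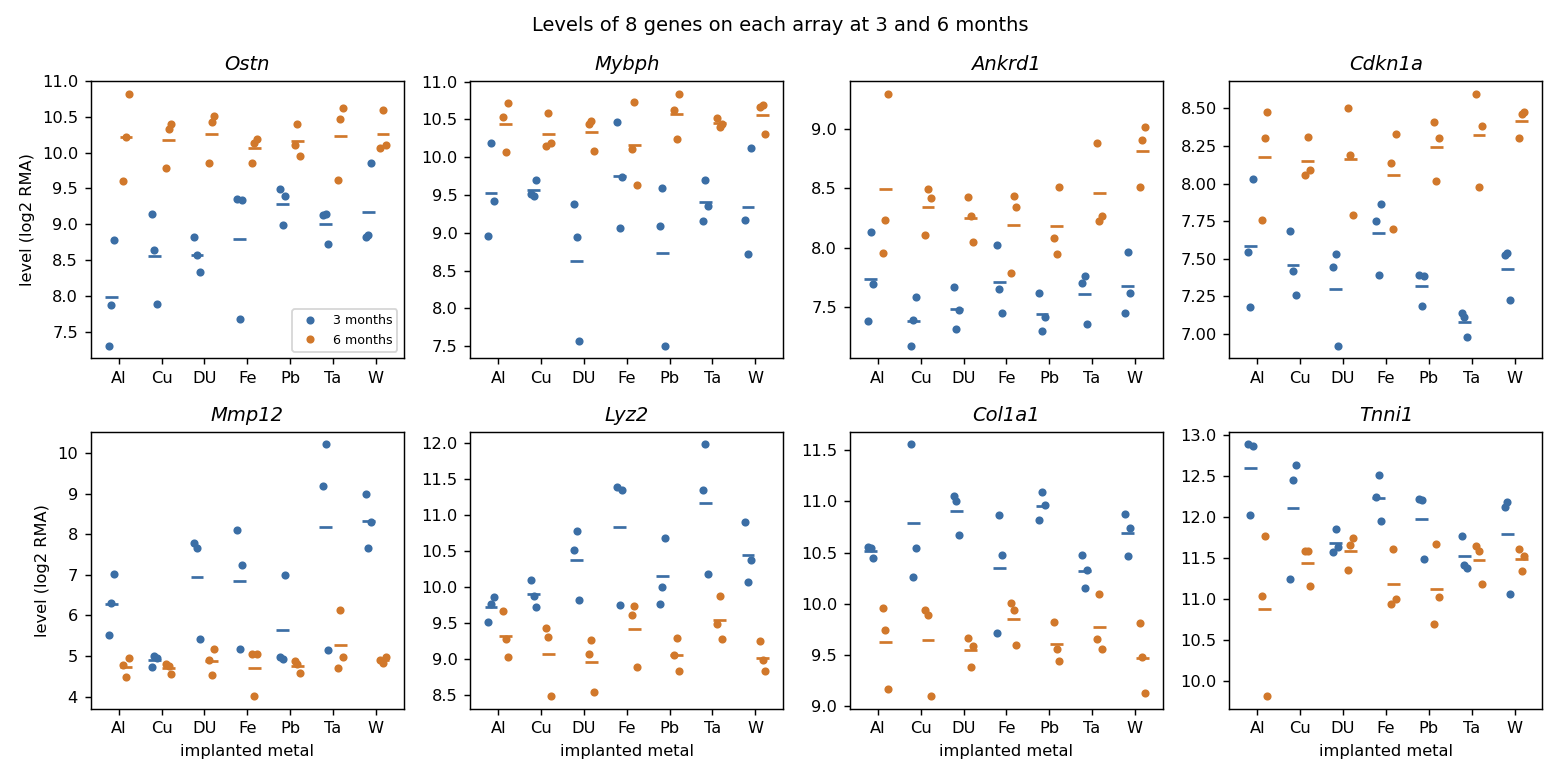
Log2 level of 8 genes on each of the 42 arrays, by implanted metal, at 3 months (blue) and 6 months (orange); points are arrays and bars the means of 3 arrays. Ostn, Mybph, Ankrd1 and Cdkn1a have a higher mean at 6 months in all 7 metals, and Mmp12, Lyz2, Col1a1 and Tnni1 a lower one.

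Genes of macrophages fell in part. Lyz2, the macrophage lysozyme, ran from 9.52 through 10.09 to 11.99 at 3 months and from 8.49 through 9.27 to 9.88 at 6 months; 17 of 21 arrays at 6 months were below all arrays at 3 months. It fell by 1.17 ± 0.14 (limma adjusted p = 2.84e-08). Lgals3, galectin-3 of activated macrophages, fell by 1.01 ± 0.11 (limma adjusted p = 1.55e-09), and Gpnmb, a glycoprotein of lipid-laden and injury-associated macrophages, by 0.94 ± 0.17 (adjusted p = 3.17e-05, and 0.316 with the control covariate).

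Of 20 macrophage markers, 6 were lower and 0 higher (5 lower with the random block and 5 with the control covariate), to be read against 18.2% lower over all probe sets; the median was −0.14. The lysosomal markers Cd68 (−0.59 ± 0.11) and Laptm5 (−0.57 ± 0.09) were among them. The complement genes C1qa (−0.05 ± 0.05, adjusted p = 0.413) and C1qb (−0.11 ± 0.10, adjusted p = 0.434), which resident macrophages express strongly, did not pass.

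Antigen-presentation genes were lower in most members. Cd74, the invariant chain that escorts MHC class II molecules, ran from 8.64 through 9.00 to 9.68 at 3 months and from 7.56 through 8.35 to 8.78 at 6 months, and 19 of 21 arrays at 6 months lay below all at 3 months. It fell by 0.79 ± 0.09 (limma adjusted p = 1.57e-08). Of 7 MHC class II genes, 5 were lower (5 with the random block, 6 with the control covariate). RT1-Ba and RT1-Da, class II chains whose promoters are shown, fell by 0.38 ± 0.08 (limma adjusted p = 0.000378) and 0.29 ± 0.08 (adjusted p = 0.00402), each in 5 of 7 metals. Ciita, the class II transactivator, was at −0.02 ± 0.05 (adjusted p = 0.764). It did pass, as lower, with the control covariate and with Co and Ni added.

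Few lymphocyte markers passed. The counts in this paragraph are to be read against 18.2% lower and 16.2% higher over all probe sets. Of 15 markers of T, NK and B cells, Prf1, the perforin of cytotoxic cells, was higher (0.29 ± 0.07; −0.07 with the control covariate) and none was lower. Cd3e of the T cell receptor stood at 5.06 and 5.07. Of these 15 markers, 12 were among the dimmest 30% of probe sets, with a mean log2 level under 5.44, where more probe sets were higher (1100) than lower (697). Of 21 chemokines and cytokines, 8 were lower and 0 higher (4 with the random block, 3 with the control covariate), among them Ccl19 (−0.32 ± 0.06), Cxcl12 (−0.23 ± 0.05) and Tgfb1 (−0.28 ± 0.07). Of 22 interferon-response genes, 5 were lower and 2 higher (2 and 0 with the random block), or 31.8% against 34.5% over all probe sets. Stat2, a component of the interferon signalling complex, fell by 0.35 ± 0.05. Of 11 neutrophil and mast cell markers, 4 were lower (3 with the random block).

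Slow-fibre genes were lower at 6 months, and few fast-fibre genes passed. Of 12 slow-fibre genes, 10 were lower and 1 higher, with a median of −0.43; with the random block 7 were lower and 1 higher, and with the control covariate 0 passed. Tnni1, the slow troponin I, ran from 11.06 through 12.03 to 12.89 at 3 months and from 9.81 through 11.53 to 11.77 at 6 months. The months overlap, with 6 arrays at 6 months below all at 3 months. The difference was −0.68 ± 0.15 (limma adjusted p = 0.000444), and it ranged from −1.72 in Al to −0.05 in Ta.

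Tnnc1, the slow troponin C, fell by 0.73 ± 0.15, Tpm3, the slow tropomyosin, by 0.53 ± 0.12, Atp2a2, the slow-fibre calcium pump, by 0.45 ± 0.11, Myl2, a slow myosin light chain, by 0.44 ± 0.11 and Myh7, the slow myosin heavy chain, by 0.41 ± 0.10. Pln, phospholamban, which restrains that pump, was the 1 gene that rose, by 0.30 ± 0.08. Ankrd2, a stretch-responsive gene enriched in slow fibres but outside the list, fell by 0.80 ± 0.22 and ranged from −2.22 in Al to 0.48 in DU. Of 13 fast-fibre genes, 3 were lower (2 with the random block), to be read against 18.2% over all probe sets; Tnni2, the fast troponin I, was at −0.23 ± 0.06 and Casq1, calsequestrin of fast fibres, at −0.21 ± 0.06, which did not pass after a second quantile normalization. Myh4, the fastest myosin heavy chain, was at 0.06 ± 0.05 (adjusted p = 0.314). The difference between the slow and the fast list was not tested.

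Among genes of heat-shock proteins and their partners, Hspb7 (−0.75 ± 0.15), Cryab (−0.48 ± 0.09) and the co-chaperone Bag3 (−0.38 ± 0.06) fell. Of 14 cytosolic heat-shock genes, 5 were lower and 4 higher (5 and 2 with the random block, 0 and 2 with the control covariate). The share that passed was 64.3%, against 34.5% over all probe sets. Dnajb4, a co-chaperone of the Hsp40 family, was among those that rose (0.20 ± 0.04). Hspa4l, a relative of the Hsp70 family outside the list, rose by 0.68 ± 0.10. It was among the dimmest 30% of probe sets, where more were higher (1100) than lower (697).

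**Figure D3:**
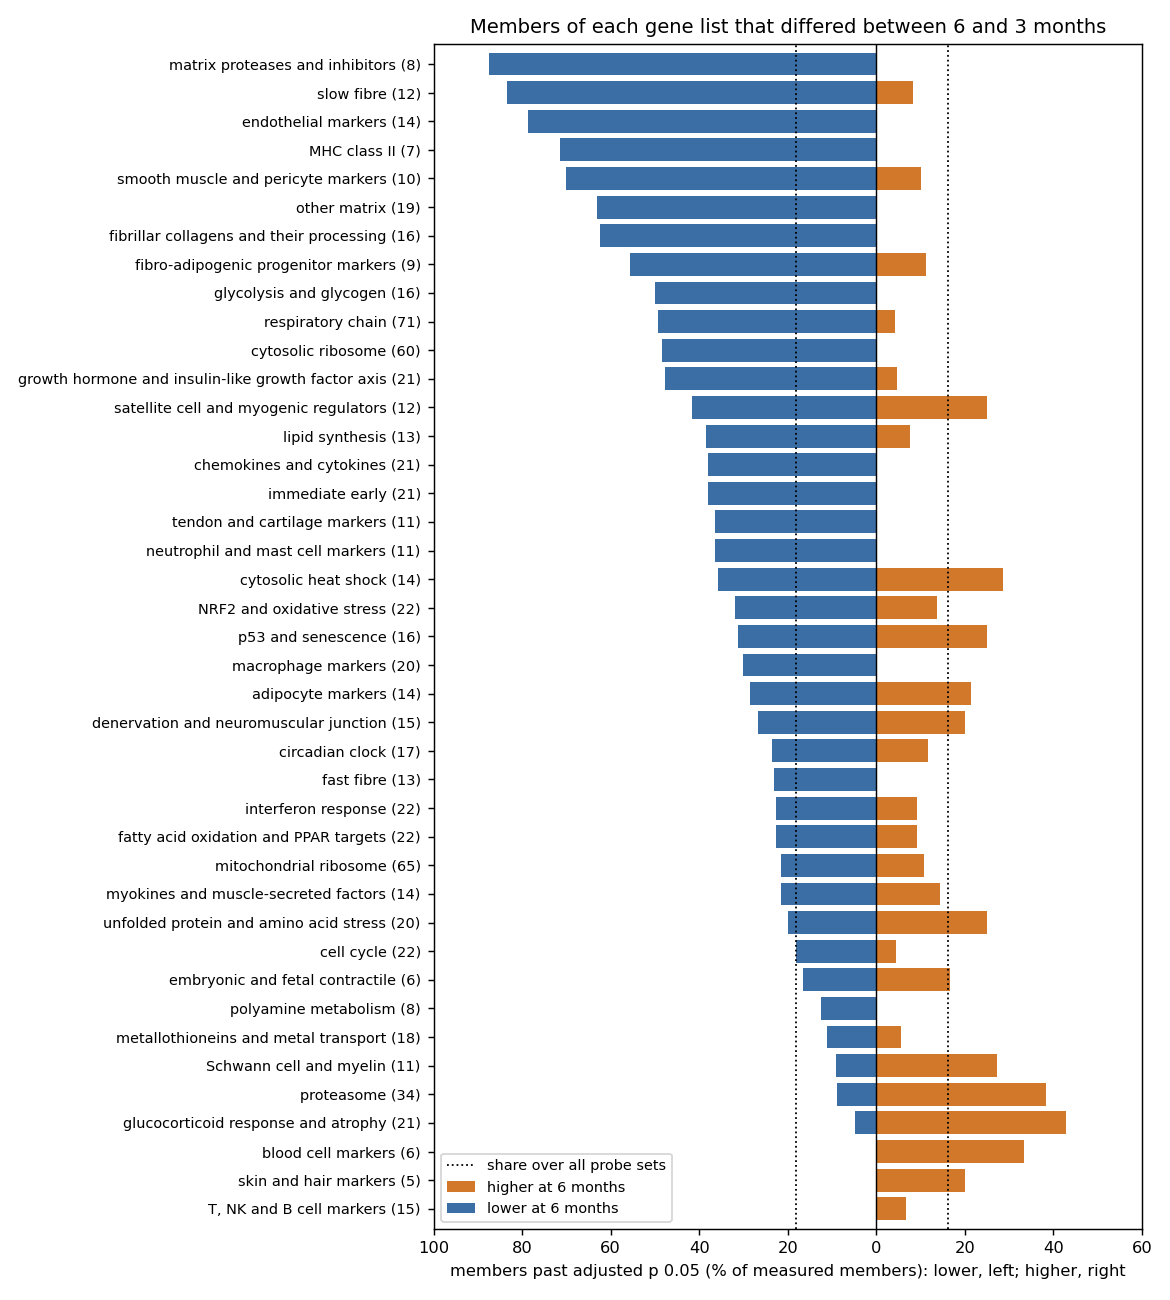
Share of the measured members of each gene list (number in parentheses) that passed an adjusted p of 0.05, lower at 6 months to the left and higher to the right; dotted lines mark the shares over all probe sets, 18.2% lower and 16.2% higher. The matrix protease, slow-fibre and endothelial lists have the longest bars to the left, and the glucocorticoid and atrophy list and the proteasome the longest to the right.

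The secreted peptide osteocrin led the genes that were higher at 6 months. Ostn, which encodes this muscle and bone peptide, ran from 7.30 through 8.82 to 9.86 at 3 months and from 9.61 through 10.19 to 10.83 at 6 months. The months overlapped at the edges, with 16 of 21 arrays at 6 months above all arrays at 3 months. The difference was 1.43 ± 0.14 (SE, limma adjusted p = 7.91e-10), or 2.69-fold, and ranged from 0.87 in Pb to 2.23 in Al. Averaged over the metals, the arrays numbered 1, 2 and 3 stood at 8.87, 8.53 and 8.90 at 3 months and at 9.84, 10.37 and 10.37 at 6 months. The same separation of these 3 means held for all 30 genes defined above. Those genes were chosen for their size and for one sign in all 7 metals, which favours such a separation. Its share over all probe sets was not counted.

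Mybph, a myosin-binding protein, rose by 1.13 ± 0.16 (limma adjusted p = 6.69e-07); with the control covariate its adjusted p was 0.0731. Its levels ran from 7.51 through 9.38 to 10.46 at 3 months and from 9.63 through 10.44 to 10.84 at 6 months. Ankrd1, a cardiac and muscle ankyrin-repeat protein that responds to load and injury, ran from 7.18 through 7.58 to 8.13 and then from 7.79 through 8.34 to 9.30, a rise of 0.81 ± 0.09 (limma adjusted p = 5.21e-09).

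Cdkn1a, the cell-cycle inhibitor p21, ran from 6.92 through 7.40 to 8.03 at 3 months and from 7.70 through 8.31 to 8.60 at 6 months, with 16 of 21 arrays above all at 3 months. It rose by 0.81 ± 0.08 (limma adjusted p = 7.91e-10), from 0.39 in Fe to 1.24 in Ta. Other genes of the p53 and senescence list did not move as one: of 16, 4 were higher and 5 lower (3 and 1 with the random block). The share of this list that passed was 56.2%, against 34.5% over all probe sets. Gadd45a, a stress gene that p53 also induces, rose by 0.35 ± 0.05, and Mdm2, the p53 ubiquitin ligase, by 0.17 ± 0.04, while the stress regulator Sesn2 fell by 0.20 ± 0.05. Cdkn2a, the p16 locus, was at −0.21 ± 0.08, and Ccng1, another p53 target, at −0.02 ± 0.05, or 0.07 after a second quantile normalization.

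Cript, a small protein of synaptic scaffolds, was the 1 gene of the 30 with all 21 arrays at 6 months above all at 3 months. It ran from 8.48 through 8.98 to 9.17 at 3 months and from 9.38 through 9.57 to 10.01 at 6 months, a rise of 0.72 ± 0.06 (limma adjusted p = 8.64e-11). The further genes among the 15 highest were Tmem196 (0.99 ± 0.10), Hook1, a microtubule-linked adaptor (0.88 ± 0.09), Gulp1, an engulfment adaptor (0.85 ± 0.09), Cst7, a cysteine protease inhibitor (0.73 ± 0.10), Ift74, of intraflagellar transport (0.62 ± 0.08), Cabcoco1 (0.61 ± 0.08), Prrt4 (0.57 ± 0.09), Iqcg (0.54 ± 0.07), Psip1, a chromatin-bound coactivator (0.53 ± 0.05), and Tmem132b (0.53 ± 0.09). With the control covariate Cst7, Prrt4 and Tmem132b no longer passed (adjusted p = 0.476, 0.665 and 0.129).

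Among the 15 lowest outside matrix and macrophage genes were Padi2, a peptidylarginine deiminase (−0.85 ± 0.11), Mgst3, a microsomal glutathione transferase (−0.75 ± 0.08), Ifitm3, an interferon-induced membrane protein (−0.73 ± 0.08), Slc4a3, an anion exchanger (−0.73 ± 0.15), and Pdlim1, a PDZ-LIM protein of the cytoskeleton (−0.73 ± 0.11). Mgst3 and Ifitm3 had 20 of 21 arrays at 6 months below all at 3 months. Slc4a3 and Pdlim1 no longer passed with the control covariate (adjusted p = 0.284 and 0.179). All 30 passed with the random block, and each passed with any 1 array left out, which the way they were chosen favours.

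**Figure D4:**
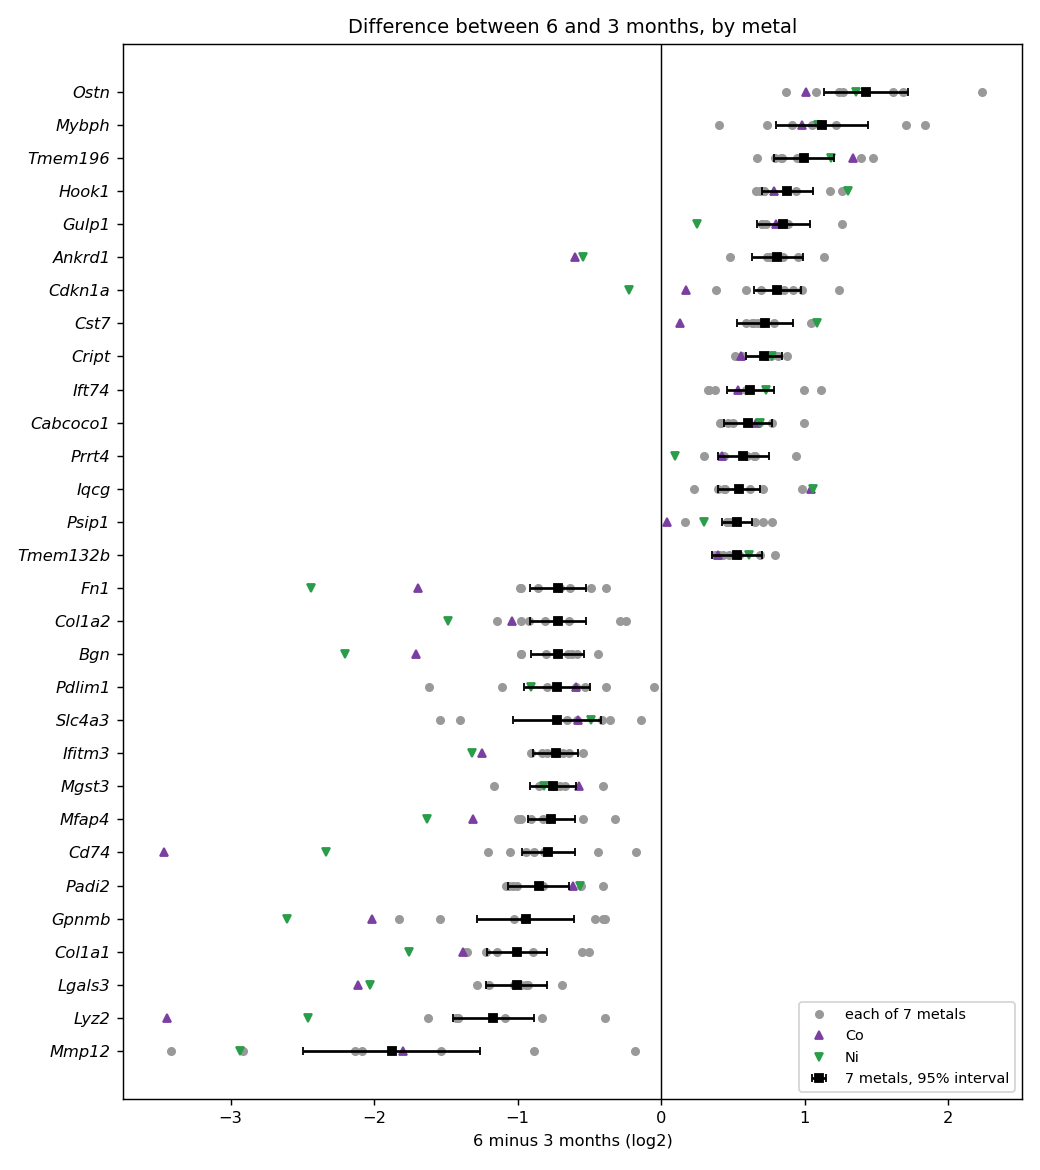
Difference between 6 and 3 months (log2) for the 15 highest and 15 lowest genes; black squares are the fit over 7 metals with its 95% interval, grey points the 7 metals and triangles Co and Ni. All grey points of a gene lie on one side of 0, which the choice of these genes required, and Ankrd1 has Co and Ni at −0.60 and −0.54.

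Genes of muscle protein breakdown were higher in part. Of 21 genes of the glucocorticoid response and atrophy, 9 were higher and 1 lower (4 and 1 with the random block, 1 and 0 with the control covariate), and the median was 0.09. Their share that passed was 47.6%, against 34.5% over all probe sets. Fbxo30, a ubiquitin ligase of wasting muscle, had all 21 arrays at 6 months above those at 3 months and rose by 0.46 ± 0.06 (limma adjusted p = 3.94e-08). Trim63, the ligase MuRF1, rose by 0.20 ± 0.04, Ddit4, an inhibitor of mTOR signalling, by 0.51 ± 0.10, and Pdk4, which spares glucose, by 0.42 ± 0.11. Fbxo32, the ligase atrogin-1, was at 0.07 ± 0.08 (adjusted p = 0.52) and the glucocorticoid target Fkbp5 at 0.16 ± 0.07 (adjusted p = 0.0623). The 1 gene that fell was Map1lc3a, of autophagosomes (−0.32 ± 0.05).

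Of 34 proteasome subunits, 13 were higher and 3 lower (9 and 2 with the random block, 6 and 1 with the control covariate). Their share that passed was 47.1%, against 34.5% over all probe sets. Psmc2, Psmc1 and Psmd10, of the regulatory cap, rose by 0.35 ± 0.05, 0.27 ± 0.04 and 0.35 ± 0.07. Psmb5, a catalytic subunit, was at −0.22 ± 0.07, and Psmd3 at −0.23 ± 0.05. The median over the 34 was 0.06.

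Genes of nerve contact and of myogenic control passed in both directions. Of 15 genes of the neuromuscular junction and denervation, 3 were higher and 4 lower (3 and 3 with the random block, 1 and 0 with the control covariate), against 16.2% higher and 18.2% lower over all probe sets. Musk, the receptor kinase that organises the junction, rose by 0.40 ± 0.06, whereas Rapsn, which clusters acetylcholine receptors, fell by 0.32 ± 0.05, Colq, the collagen tail of acetylcholinesterase, by 0.43 ± 0.10 and Chrna1, a receptor subunit, by 0.42 ± 0.10. Of 12 satellite cell and myogenic regulators, 3 were higher and 5 lower (3 and 3 with the random block, 2 and 0 with the control covariate): Myf6 (0.37 ± 0.05), Ncam1 (0.41 ± 0.07) and Myog (0.27 ± 0.08) rose, and Myf5 (−0.45 ± 0.10; 0.04 with the control covariate) and the stem cell factor Pax7 (−0.13 ± 0.04) fell. Myh3, the embryonic myosin heavy chain, fell by 0.34 ± 0.07.

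Respiratory chain and glycolysis genes were lower more often than higher, by small amounts. Of 71 respiratory chain genes, 35 were lower and 3 higher, with a median of −0.12 (28 and 0 with the random block). With the control covariate 4 were lower and 7 higher and the median was 0.05, so the direction of this group turned with that choice. Atp5f1e, a small subunit of ATP synthase, fell by 0.61 ± 0.07 (limma adjusted p = 1.25e-08) and Uqcrq of complex III by 0.43 ± 0.06. Of 16 glycolysis and glycogen genes, 8 were lower (3 with the random block, 3 with the control covariate), among them Gys1, glycogen synthase (−0.34 ± 0.05), and Slc2a4, the insulin-responsive glucose transporter (−0.24 ± 0.05). Of 22 fatty acid oxidation genes and PPAR targets, 5 were lower and 2 higher (3 and 1 with the random block), against 18.2% lower and 16.2% higher over all probe sets. Their median of −0.06 turned to 0.01 with the control covariate, where 0 were lower and 3 higher, and to 0.02 with the olfactory receptor median, where 3 were lower and 3 higher. Fabp3, which carries fatty acids in oxidative fibres, fell by 0.58 ± 0.11.

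Of 60 cytosolic ribosomal protein genes, 29 were lower and 0 higher, with a median of −0.12 (20 with the random block; 7 lower and 1 higher with the control covariate). After a second quantile normalization 20 were lower and 2 higher. Rplp1 of the ribosomal stalk fell by 0.45 ± 0.05 and Rps27 by 0.48 ± 0.05. Ribosomal proteins have many near-identical pseudogene copies, so their probe sets may read more than 1 locus. The mitochondrial ribosome was mixed, with 14 of 65 lower and 7 higher (12 and 5 with the random block). With the control covariate 1 was lower and 16 were higher. The share of this list that passed was 32.3%, near the 34.5% over all probe sets, and that of the cytosolic list was 48.3%.

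Genes of growth factor signalling were lower in part. Of 21 genes of the growth hormone and IGF axis, 10 were lower and 1 higher (7 and 0 with the random block, 4 and 0 with the control covariate). Their share that passed was 52.4%, against 34.5% over all probe sets. Igf1 itself stood at 8.26 and 8.30 (0.03 ± 0.09, adjusted p = 0.808). Irs1, the insulin and IGF receptor substrate, fell by 0.50 ± 0.07 (limma adjusted p = 8.39e-07), and Cish, a feedback inhibitor that growth hormone induces, by 0.70 ± 0.15. The binding proteins Igfbp7 and Igfbp4 fell by 0.32 ± 0.05 and 0.29 ± 0.05. Among 22 cell cycle genes, 4 were lower and 1 higher (3 and 0 with the random block), near the background.

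Nr1d1, the clock repressor REV-ERB alpha, ran from 10.06 through 10.61 to 11.25 at 3 months and from 9.65 through 10.06 to 10.31 at 6 months, and fell by 0.57 ± 0.06 (limma adjusted p = 7e-09). Of 17 clock genes, 4 were lower and 2 higher (3 and 1 with the random block), or 35.3% against 34.5% over all probe sets: Usp2 and Dbp fell by 0.22 ± 0.05 and 0.23 ± 0.06 and Cry1 rose by 0.19 ± 0.05, whereas Bmal1, Per1 and Per2 did not pass (0.08 ± 0.06, −0.09 ± 0.08 and −0.05 ± 0.05). The labels used here give no hour of tissue collection. Of 21 immediate early genes, 8 were lower and 0 higher (6 with the random block, 3 with the control covariate), led by Egr3 (−0.36 ± 0.06). The share of immediate early genes that passed was 38.1%, near that 34.5%.

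Vessel and stromal cell markers were lower in most members. Of 14 endothelial markers, 11 were lower and 0 higher (10 with the random block, 1 with the control covariate), with a median of −0.22. Eng, endoglin of the vessel lining, ran from 9.03 through 9.30 to 9.65 at 3 months and from 8.23 through 8.76 to 9.05 at 6 months; 19 arrays at 6 months were below all at 3 months, and it fell by 0.59 ± 0.05 (limma adjusted p = 8.64e-11). Aplnr, the apelin receptor, fell by 0.56 ± 0.06 and Pecam1 by 0.38 ± 0.06. Of 10 smooth muscle and pericyte markers, 7 were lower and 1 higher (6 and 0 with the random block, 2 and 0 with the control covariate), including Pdgfrb (−0.29 ± 0.06) and Acta2 (−0.25 ± 0.06). Of 9 markers of fibro-adipogenic progenitors, the collagen-producing stromal cells of muscle, 5 were lower and 1 higher (5 and 0 with the random block, 4 and 0 with the control covariate), Cd34 by −0.42 ± 0.06 and Thy1 by −0.28 ± 0.07. The part of these cell markers in the fall of the matrix genes was not tested.

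Markers of other tissues that a dissection could carry gave no common direction. Over all probe sets 18.2% were lower and 16.2% higher. Of 11 tendon and cartilage markers, 4 were lower (3 with the random block), among them Cilp (−0.47 ± 0.06) and Chad (−0.60 ± 0.11). Of 14 adipocyte markers, 3 were higher and 4 lower (2 and 3 with the random block). Adipoq, adiponectin of fat cells, rose by 0.83 ± 0.19, with arrays from 7.05 to 10.10 at 3 months and from 8.93 to 10.78 at 6 months; it turned to −0.41 with the control covariate (adjusted p = 0.529). Lipe, the hormone-sensitive lipase, fell by 0.35 ± 0.06. Of 11 Schwann cell and myelin genes, 3 were higher and 1 lower (2 and 1 with the random block), led by Cdh19 (0.42 ± 0.08). Cdh19 was also among the dimmest 30% of probe sets. Of 6 blood cell markers, 2 were higher, Bpgm and Hbb, while Hba-a1 was at −0.12 ± 0.07; of 5 skin and hair markers, 1 was higher, Tp63.

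Few genes that handle metals passed. Of 18 metallothioneins and metal transporters, 2 were lower and 1 higher (2 and 0 with the random block). Their share was 16.7%, against 34.5% over all probe sets. Tfrc, the transferrin receptor that imports iron, fell by 0.50 ± 0.06 (limma adjusted p = 1.83e-08), from −0.76 in W to −0.36 in Fe, and Ftl1, the ferritin light chain, by 0.45 ± 0.10. Mt1, a metallothionein, was at −0.07 ± 0.06 (adjusted p = 0.452). Of 22 NRF2 and oxidative stress genes, 7 were lower and 3 higher (5 and 1 with the random block). Their share was 45.5%, against 34.5% over all probe sets. Gpx1 and Gpx3, glutathione peroxidases, fell by 0.58 ± 0.12 and 0.32 ± 0.06. Hmox1, heme oxygenase, was at −0.19 ± 0.11 (limma adjusted p = 0.175).

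The counts of the next lists are to be read against 16.2% higher and 18.2% lower over all probe sets. Of 20 unfolded protein and amino acid stress genes, 5 were higher and 4 lower (3 and 4 with the random block). Dnajb9 rose by 0.30 ± 0.04, and Atf5 fell by 0.40 ± 0.05. Of 13 lipid synthesis genes, 5 were lower and 1 higher (4 and 1 with the random block), with Srebf1, the lipogenic transcription factor, at −0.35 ± 0.05. Of 14 myokines, 2 were higher and 3 lower (1 and 1 with the random block); beside Ostn, Fgf21 fell by 0.34 ± 0.06. Of 8 polyamine genes, Odc1, the rate-limiting enzyme, fell by 0.24 ± 0.07. Of 6 genes of the embryonic and fetal contractile list, 1 was higher and 1 lower. The higher one was Ankrd1, the ankyrin-repeat gene described above, and the lower one Myh3.

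The next question is whether the difference between the months depended on the metal. The interaction of metal and month passed for 1 of 22954 probe sets (0.00436%), and 1631 had an unadjusted p below 0.05, against 1148 expected at that level. With the replicate number within each month as a block, 5 passed. The count ranged from 0 to 78 with 1 array left out, and the 78 came without the third Cu array at 3 months.

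The 1 gene was Il33, an alarmin of stromal and endothelial cells (limma interaction adjusted p = 0.0234, and 0.00643 with the block). In Al its arrays stood at 7.06, 7.36 and 7.23 at 3 months and at 8.07, 7.77 and 8.26 at 6 months. In DU they stood at 8.10, 8.04 and 8.05 and then at 7.69, 7.53 and 7.50. The months did not overlap in either metal, and the order was opposite. Il33 was selected by this interaction, so opposite orders in some metals follow from the selection and add no support to it. Il33 was higher at 6 months by 0.83 in Fe, 0.81 in Al and 0.67 in Ta, lower by 0.48 in DU (−0.48) and 0.26 in Pb (−0.26), and near level in Cu (0.07) and W (−0.04). Over the 7 metals the difference was 0.23 ± 0.10 (adjusted p = 0.0618). The other named genes that passed with the block were Cysltr1, a leukotriene receptor (from −1.29 in Pb to 0.36 in Al), Soat1, which esterifies cholesterol (from −0.53 in Ta to 0.38 in Al), and Lhfpl6 (from −0.42 in DU to 0.33 in Ta).

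The same 7 metals at 1 and 12 months, on 42 other arrays, show how these genes lay at the ends of the year. Between 12 and 1 month 8899 probe sets passed (38.8%). Of the 7915 that passed at 6 against 3 months, 84.2% had the same sign at 12 against 1 month, compared with 61.9% of the 15039 that did not pass. In both comparisons 4258 passed in the same direction, 53.8% of the calls at 6 against 3 months and 47.8% of those at 12 against 1, and 185 passed in opposite directions. The olfactory receptor genes moved the same way in both: 539 of 1002 were higher and 8 lower at 12 against 1 month. Of the 30 genes, 27 passed at 12 against 1 month in the same direction.

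Col1a1 and Sparc were highest at 1 month. Col1a1 averaged 11.73 at 1 month and 9.34 at 12 months, around 10.65 and 9.65 at 3 and 6 months, and Sparc went from 12.55 to 10.90. Cdkn1a averaged 7.49 and 8.53 and Ostn 8.63 and 10.24 at 1 and 12 months. For both the 1-month level was near that at 3 months. The 12-month level of Ostn was near that at 6 months. That of Cdkn1a lay above its 6-month means for arrays numbered 1, 2 and 3 (8.25, 8.14 and 8.26), a difference that was not tested. Other genes did not follow 1 direction over the year. Mmp12 averaged 5.68 at 1 month, 6.73 at 3, 4.85 at 6 and 4.93 at 12 months, highest at 3 months. Mybph was lowest at 3 months (9.28), with 10.06 at 1 and 10.40 at 6 months. Nr1d1 fell between 3 and 6 months and was higher at 12 than at 1 month (0.31, limma adjusted p = 0.00107). Cabcoco1 and Iqcg, higher at 6 than at 3 months, did not pass at 12 against 1 month (adjusted p = 0.828 and 0.808), nor did Gpnmb (0.0636).

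**Figure D5:**
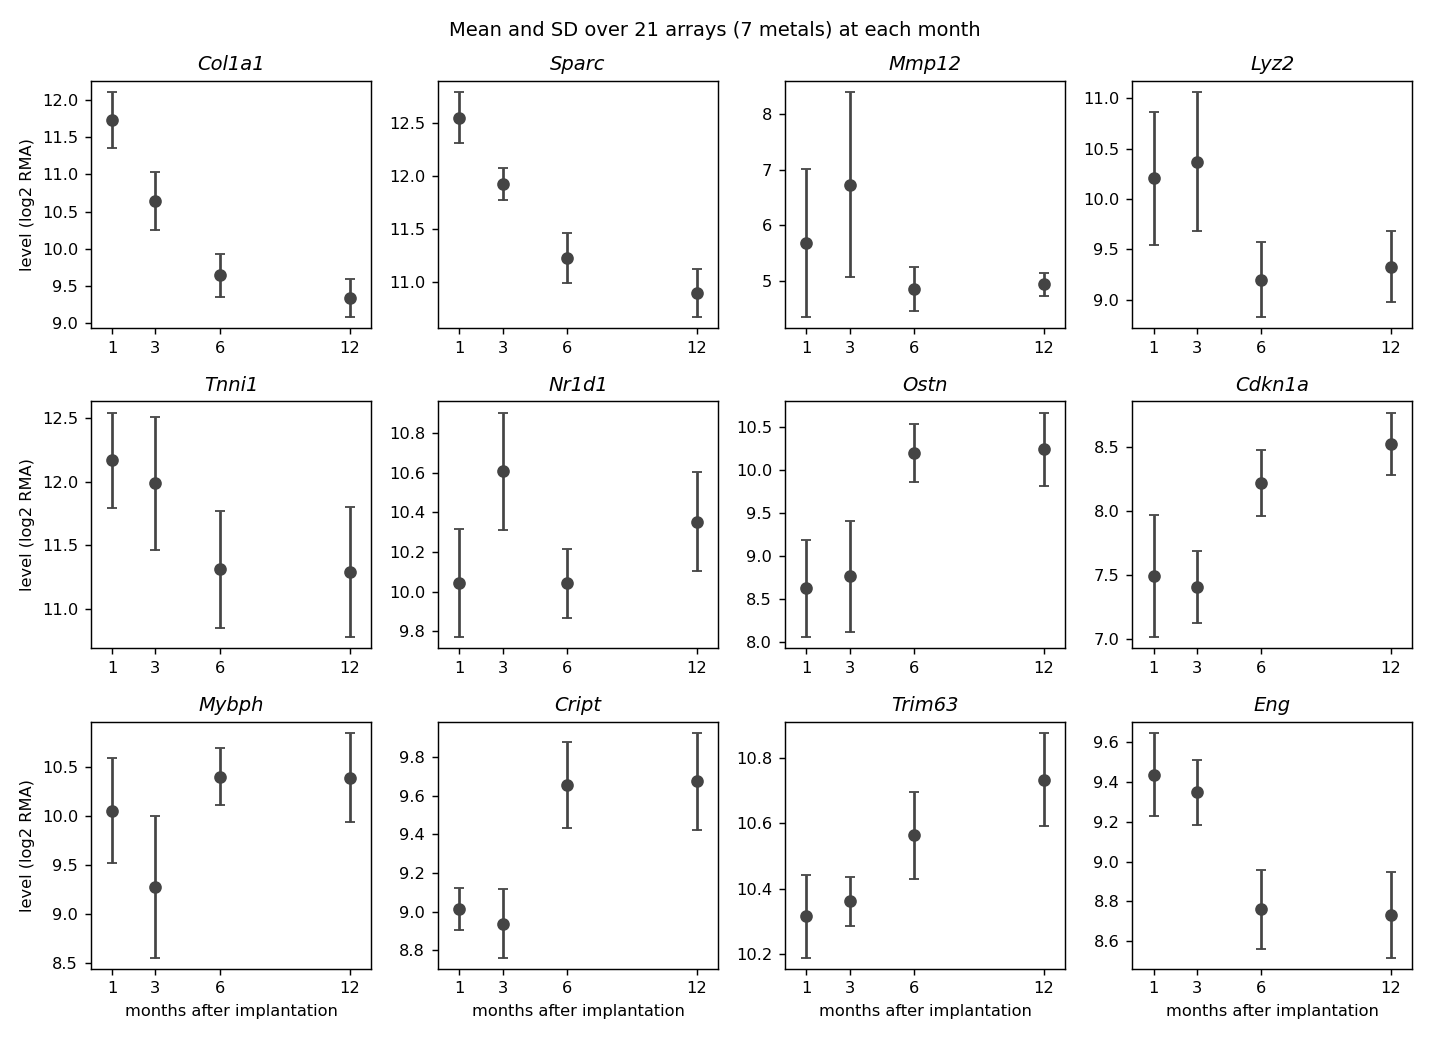
Mean log2 level and SD over 21 arrays of the 7 metals at 1, 3, 6 and 12 months for 12 genes. Col1a1 and Sparc are highest at 1 month, Mmp12 is highest at 3 months, Mybph is lowest at 3 months, and Ostn and Cdkn1a are higher at 6 and 12 months than at 1 and 3 months.

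Cobalt and nickel, left out of the fit, gave differences of their own for some of these genes, which were not tested against the 7 metals. Ostn was higher at 6 months by 1.01 in Co and 1.36 in Ni, within the range of the 7 metals. Ankrd1 was lower, by −0.60 in Co and −0.54 in Ni, where all 7 metals were higher, and Cdkn1a was at 0.18 and −0.23. Lyz2 was at −3.45 and −2.46 and Cd74 at −3.46 and −2.33, larger falls than in any of the 7 metals. With Co and Ni added to the fit, 9916 probe sets passed.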

How the data were processed

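Total RNA from rat gastrocnemius was measured on Clariom S Rat arrays. The deposited values are log2 expression levels per probe set; per the submitters' processing notes they were made with RMA in the oligo package under R 4.0.1. Background and probe settings, genome build and scan dates are not given in the sources used here. Of 22977 probe sets, 23 control probe sets were left out, and 22954 were tested. Of these, 14855 have 1 gene symbol in the platform table, matched by gene ID, and 8099 have none and were not named. Values of 377 probe sets are identical to those of another; over distinct values 7825 passed.

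From the deposited values, limma 3.58.1 (R 4.3.3) fitted metal and month to 42 arrays with lmFit and eBayes, with Benjamini-Hochberg adjustment and two-sided tests. The interaction was a moderated F test, and random blocks used duplicateCorrelation. The fit was tried on simulated data with independent arrays, so that trial does not cover deviations shared between arrays or array-wide shifts with the month. The number of arrays limits the precision. The members and the 42 gene lists were chosen with earlier results of these data known. Genes were named by rule: the 15 highest and 15 lowest that passed with one sign in all 7 metals and were not among the dimmest 30%, and up to 4 of smallest adjusted p per list. Hspa4l, Ankrd2 and the listed genes named beyond those 4 were chosen after their values were seen. Arrays sharing metal and number at 3 and 6 months did not deviate together (correlations from −0.09 to 0.171, above 0.1 in 4 of 21), so numbers do not pair the months. At 6 months, arrays of one number did deviate together across metals (0.1 to 0.326). The random block, both covariates and leaving out 3 arrays were chosen after seeing the data.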

Additional observations from a re-analysis of the deposited data

Results flagged for a closer look

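Il33, which encodes an alarmin released by damaged stromal and endothelial cells, differed between 6 and 3 months by an amount that depended on the implanted metal (limma moderated F test of the interaction, adjusted p = 0.0234). It was higher at 6 months in Al, Fe and Ta, by 0.81, 0.83 and 0.67 on the log2 scale, and lower in DU and Pb, at −0.48 and −0.26. Each value compares 3 arrays with 3. No probe set passed this interaction after a second quantile normalization, in the fit of all arrays of the series, without Al, DU, Fe or Pb, or without any 1 of several single arrays of Al, DU and Fe.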

How the results depend on the processing

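The count of 7915 for 6 against 3 months stayed within 1.5 times under every alternative listed at the outset (6474 to 9916). The replicate block by metal and number gave 7826, and the replicate block within month 8798. Among alternatives added later, the number within month as a random replicate block gave 4732 and the low-GC control level as a covariate 3178; the cause was not tested. Leaving out the 3 arrays at 3 months with the lowest control level (Cu numbers 1 and 2, Al number 1) gave 7454. The interaction count of 1 was 0 after a second quantile normalization, in the fit of all arrays and without Al, DU, Fe or Pb, 2 without the dimmest 30%, 4 without Cu, 7 with an intensity trend and 5 with the replicate block within month. With 1 array left out it ran from 0 to 78; it was 0 without Al number 3 or DU number 1 or 3 at 3 months, or without Al number 1 or 3, DU number 2 or 3 or Fe number 1 or 2 at 6 months. The count for 12 against 1 month stayed within 1.5 times under each alternative run. With the control covariate Ier3 (0.0652), Myf5 (0.0366), Bdnf (0.261), Lcn2 (0.0131), Socs2 (0.219), Prf1 (−0.0711) and Adipoq (−0.413) changed sign, as did Bdnf (0.0371) with the olfactory receptor median as a covariate, and Ccng1 after a second quantile normalization (0.0741). With the olfactory receptor median, Mdm2, Sesn2, Ddit4, Psmb5, Casq1, Myf5, Ftl1, Odc1, Prf1, RT1-Da, Tgfb1, Adipoq, Tp63, Cish, Pln, Atp2a2 and Ankrd2 no longer passed, nor did RT1-Da and Postn without DU, Odc1 without Pb, Hbb and Myog without Ta, and Prf1 with Co and Ni added.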
